A study of Mus musculus and Homo sapiens with 14 samples.

Results

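MOLM-13 is a human acute myeloid leukemia line with the fusion gene MLL-AF9, and its 4 libraries of the 14 in the series form 2 pairs that share a replicate number. Replicate 1 held 1 library of cells given DMSO and 1 of cells given YKL-05-099, and so did replicate 2, so the difference between the numbers could be taken with the treatment as a covariate. All 4 libraries were polyA-selected RNA of MOLM-13 cells with an empty vector, grown in RPMI with 10% serum, and treated for 2 h with 0.1% DMSO or with 250 nM YKL-05-099, which blocks the salt-inducible kinases SIK1 to SIK3. The libraries were chosen by the replicate number in their titles alone. No label states what the numbers stand for, such as a culture, a day or a sequencing run, so differences below are between 2 numbers. A p-value below sets a gene's difference against the spread of genes of similar level in these 4 libraries alone. Part of that spread may be technical.

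Cells of one line can differ in several programs that respond to their surroundings. NRF2 is freed from its inhibitor KEAP1 under oxidative stress and turns on genes for glutathione, thioredoxin and heme breakdown, while p53 turns on genes for cell cycle arrest and for its own ubiquitin ligase, MDM2. ATF4 is made when eIF2 is phosphorylated, as on amino acid shortage or protein misfolding, and drives amino acid transport and synthesis. The SREBP factors raise cholesterol and fatty acid synthesis when membranes hold little sterol. These programs bear on the growth and survival of leukemia cells, and their messages can change within hours of a change in medium or density.

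The recovered totals were 18456346 and 16859820 reads in replicate 1 and 22609627 and 20086874 in replicate 2, in the order DMSO and YKL-05-099, so the replicate 2 libraries were deeper in both treatments. Values below are read counts divided by the size factor of the library, as the authors deposited them, and each set of 4 values is given in this order within a replicate. Between the libraries of a treatment, chi-square over degrees of freedom was 14.4 for DMSO and 13.7 for YKL-05-099, so within a treatment neither library repeated the other. Libraries of different treatments were not compared in this way. Of 15 genes that define the line, 13 had a mean of at least 10, among them HOXA9 at 2492 to 2919, MEIS1 at 1365 to 1570, FLT3 at 6469 to 8207 and LYZ at 33202 to 39454, and CD34 was at 0 in all 4. The summed level of these 15 genes was 82114 and 86270 in replicate 1 and 80691 and 80953 in replicate 2. Some defining genes of other cells were at 0 in all 4 libraries, such as CD3E and CD2 of T cells, MS4A1 of B cells and HBA1 and HBB of red cells. So were PF4 of platelets, COL3A1 of fibroblasts, EPCAM of epithelium and CDH5 of endothelium. These were 6 of 16 measured T and NK, 2 of 10 B, 8 of 15 red cell and 2 of 11 platelet genes. They were 1 of 9 mast cell, 2 of 11 fibroblast, 5 of 10 epithelium and 3 of 8 endothelium genes. Others of these lists had reads, with means of 666 for NKG7, 263 for NCAM1, 416 for EPOR and 199 for TFR2. Means were 105 for GP1BB, 86.3 for ACTA2, 190 for KRT18, 213 for MUC1 and 893 for PECAM1. The summed markers of T and NK cells, of which 4 of 16 measured had a mean of at least 10, were 3736 and 3764 in replicate 1 and 4187 and 4184 in replicate 2, and most of that was CD4, which myeloid cells also express. Mast cell markers, mostly GATA2, summed to 831 and 643 in replicate 1 and 957 and 973 in replicate 2, and the remaining lists summed to between 33.4 and 980 per library. The part of these markers in the results below was not tested.

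Of 11361 genes tested, 4332 differed between the replicate numbers, a share of 38.1%, of which 1964 (17.3% of genes tested) were higher and 2368 (20.8%) were lower in replicate 2. Most of the differences were small: the median absolute log2 difference was 0.15 over all genes tested and 0.25 over those that differed, and 56 genes differed by over 2-fold, 32 higher and 24 lower in replicate 2. Of the calls, 4195 (96.8%) had replicate numbers that did not overlap, against 7345 (64.7%) of all genes tested. The same sign within DMSO and within YKL-05-099 was seen in 4319 calls (99.7%). The tested difference is the mean of those within DMSO and within YKL-05-099. The test therefore favors calls with the same sign and no overlap, and neither share is independent support. Replicate number held 57.6% of the sum of squares of the log2 values about each gene's mean, treatment held 24.4% and the remainder 17.97%. Across genes, which are not independent replicates, the difference within DMSO and that within YKL-05-099 had a Pearson r of 0.53 and a Spearman rho of 0.64.

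The test was limma's moderated test with a mean-variance trend, which left 1 residual degree of freedom per gene and took each gene's variance from the trend. Without the trend, limma called 0 genes (smallest adjusted p 0.0912, with 3764 genes at an unadjusted p under 0.05). The edgeR fit called 4326, of which 4277 were shared with the same direction. DESeq2 called 1366, 443 higher and 923 lower, of which 1362 were shared with the same direction. Leaving out a library also meant leaving out the treatment covariate, since 3 libraries leave no residual degree of freedom with it. Without the covariate the count over all 4 libraries was 3179, and it was 1123 when DMSO replicate 2 was left out as well, 1590 for YKL-05-099 replicate 2, 2449 for YKL-05-099 replicate 1 and 3271 for DMSO replicate 1. The same holds for the list counts without a library below. Each fit without a library, like DESeq2, called more genes lower than higher over all genes tested. That lean was strongest without DMSO replicate 2, and list counts from these fits have to be read beside it.

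In the mouse line RN2, treated in the same way with 350 nM YKL-05-099 and measured in 4 libraries, 652 of 10732 genes (6.08%) differed between the replicate numbers. The median absolute log2 difference there was 0.07, and 5 of the genes that differed did so by over 2-fold. Replicate number held 36.9% of the sum of squares, treatment 39.3% and the remainder 23.8%. In both lines each part has a single degree of freedom, so each holds a share even without an effect. The lines were not tested against each other, since they were deposited in separately normalized tables, and DESeq2 called 10 genes in RN2. With replicate number left out of the model, the YKL-05-099 comparison in MOLM-13 gave 0 genes past limma's test (0% of those tested), with 144 at an unadjusted p under 0.05, against 0 with edgeR and 7 with DESeq2. With replicate number as a block, limma called 290 genes, although no label says that the number pairs the libraries. The median absolute log2 change with YKL-05-099 was 0.06.

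Antioxidant genes under NRF2 were more often lower than higher in replicate 2. Of 30 NRF2 genes tested, 18 (60%) were lower, 4 (13.3%) were higher and 8 did not pass. Their median log2 difference was -0.19, against 0.0085 over all genes. Of all genes tested, 17.3% were higher and 20.8% lower, the shares to set beside each list count of this fit below. HMOX1, the heme oxygenase that breaks heme into iron, carbon monoxide and biliverdin, stood at 908 and 926 in replicate 1 and 256 and 237 in replicate 2. Its replicate 1 values lay far above those of replicate 2, a log2 difference of -1.89 ± 0.08 (2 libraries for each number), adjusted p = 1.91e-115. Here and below, ± gives the SE from the variance trend over genes, not from the spread of the gene's own libraries. OSGIN1, an oxidative stress gene that slows growth, stood at 317 and 311 in replicate 1 and 124 and 107.95 in replicate 2, a log2 difference of -1.43 ± 0.12.

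TXNRD1, the cytosolic thioredoxin reductase, stood at 10350 and 10654 in replicate 1 and 6798 and 6333 in replicate 2. FTH1, the ferritin heavy chain that stores iron, stood at 11204 and 11112 in replicate 1 and 7093 and 6919 in replicate 2, and SRXN1, which restores oxidized peroxiredoxins, at 2811 and 3095 in replicate 1 and 2019 and 1871 in replicate 2. In all 3 genes both replicate 2 libraries lay below both of replicate 1, with log2 differences of -0.68 ± 0.04, -0.67 ± 0.04 and -0.60 ± 0.05. Further members, here and in the lists below, were named for their roles after their values were seen. The glutathione genes followed the same direction: GCLM, the regulatory subunit of the rate-limiting enzyme, was lower by a log2 difference of -0.62 ± 0.06, GSR, glutathione reductase, by -0.56 ± 0.05, and SLC7A11, the cystine importer, by -0.57 ± 0.06. NQO1, a quinone reductase, differed by -0.50 ± 0.07, ME1, which makes NADPH, by -0.60 ± 0.16 and AKR1C1, an aldo-keto reductase with near-identical family members that make its count uncertain, by -0.67 ± 0.22.

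The 4 NRF2-list genes that were higher in replicate 2 were GPX1, a glutathione peroxidase, at 0.25, GSTP1, a glutathione transferase, at 0.18, PRDX1, a peroxiredoxin, at 0.15 and SOD1, a superoxide dismutase, at 0.13 on the log2 scale. Thioredoxin itself, TXN (0.03, adjusted p = 0.636), did not pass. Leaving out DMSO replicate 2, 0 of the 30 were higher and 13 lower, with YKL-05-099 replicate 2 left out 1 and 13, and DESeq2 called 3 higher and 13 lower.

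**Figure D1:**
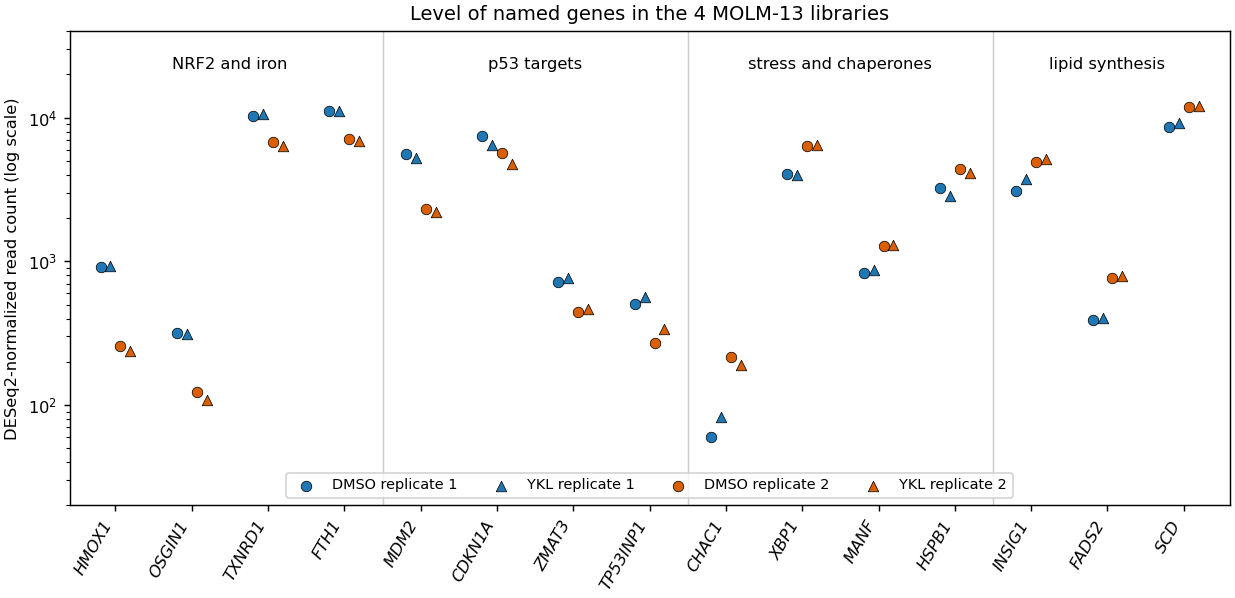
DESeq2-normalized read count (log scale) of 15 genes in each of the 4 MOLM-13 libraries; blue marks replicate 1, orange replicate 2, circles DMSO and triangles YKL-05-099. HMOX1 lay at 908 and 926 in replicate 1 against 256 and 237 in replicate 2, and in every gene drawn the replicate numbers did not overlap.

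Targets of p53 were likewise more often lower than higher in replicate 2. Of 32 tested, 16 were lower, 1 was higher and 15 did not pass, with a median log2 difference of -0.17. MDM2 had the lowest p of all genes tested and stood at 5576 and 5254 in replicate 1 and 2310 and 2207 in replicate 2. Its level in replicate 1 exceeded that in replicate 2 in both treatments, a log2 difference of -1.26 ± 0.04, adjusted p = 8.69e-165. CDKN1A, the cyclin-dependent kinase inhibitor p21, stood at 7415 and 6481 in replicate 1 and 5721 and 4784 in replicate 2. ZMAT3, an RNA-binding p53 target, stood at 722 and 772 in replicate 1 and 443 and 465 in replicate 2, and TP53INP1, which promotes p53 activity, at 505 and 563 in replicate 1 and 272 and 339 in replicate 2.

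All 3 were lower in both replicate 2 libraries than in either of replicate 1, by log2 differences of -0.41 ± 0.04, -0.72 ± 0.07 and -0.81 ± 0.09. PLK2, a polo-like kinase, differed by -0.68 ± 0.08 and FAS, the death receptor, by -0.32 ± 0.09. The member that was higher was SESN2, at 0.42, which is also an ATF4 target. The apoptosis genes BAX (0.07, adjusted p = 0.256) and BBC3, which encodes PUMA (-0.05, adjusted p = 0.666), did not pass. After the correction for length and GC content described below, BAX passed limma's test as lower, at -0.17 (adjusted p = 0.000224). With YKL-05-099 replicate 2 left out, 9 were lower and 1 was higher, without DMSO replicate 2 the counts were 10 and 1, and DESeq2 called 9 and 1.

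ATF4 targets were more often higher than lower in replicate 2. Of 31 tested, 17 were higher, 4 were lower and 10 did not pass, with a median log2 difference of 0.27. CHAC1, which degrades glutathione, stood at 59.8 and 82.3 in replicate 1 and 216 and 189 in replicate 2. Both replicate 2 libraries lay above both of replicate 1, a log2 difference of 1.51 ± 0.15, adjusted p = 2.45e-21. SLC1A5, the glutamine transporter, stood at 6145 and 5834 in replicate 1 and 7988 and 7631 in replicate 2, a log2 difference of 0.38 ± 0.04.

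The list's member with the lowest p, KLHL24, a ubiquitin ligase adaptor, went the other way, at 693 and 764 in replicate 1 and 417 and 434 in replicate 2, a log2 difference of -0.77 ± 0.08. SLC7A11, on the NRF2 list as well, stood at 1076 and 1134 in replicate 1 and 723 and 760.4 in replicate 2 and was lower too. STC2, a secreted glycoprotein, stood at 16.8 and 10.4 in replicate 1 and 50.5 and 49.7 in replicate 2, a log2 difference of 1.84 ± 0.31. ATF4 itself stood at 8119 and 8471 in replicate 1 and 9804 and 9347 in replicate 2, a difference of 0.21 ± 0.04, and its target TRIB3, a pseudokinase, differed by 0.35 ± 0.06. Asparagine synthetase, ASNS (0.06, adjusted p = 0.368), and DDIT3, which encodes CHOP (0.23, adjusted p = 0.106), did not pass. With the library of DMSO replicate 2 left out the counts were 9 higher and 2 lower, and DESeq2 called 7 and 3.

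Enzymes of amino acid use were higher in part. In serine and one-carbon synthesis, 7 of 17 genes were higher and 3 lower, with a median of 0.06, led by PHGDH, the first enzyme of serine synthesis, at 2021 and 1928 in replicate 1 and 2590 and 2622 in replicate 2, a log2 difference of 0.40 ± 0.05. The proline enzyme PYCR1 differed by 0.29 ± 0.05, and SHMT2, the mitochondrial serine hydroxymethyltransferase, by 0.23 ± 0.04. Of 22 cytoplasmic aminoacyl tRNA synthetases, 7 (31.8%) were higher and 2 (9.09%) lower. AARS lay at 0.37, FARSA at 0.32 and MARS at 0.23, and EPRS, for glutamate and proline, at -0.21. In the serine list 41.2% were higher and 17.6% lower, against 17.3% and 20.8% of all genes tested. Without DMSO replicate 1, the median of the serine list was 0.0059 and that of the synthetases 0.0066, with 6 higher and 2 lower in the first and 4 and 3 in the second. Without DMSO replicate 2, 2 genes of each list were higher and 0 lower, without YKL-05-099 replicate 2 4 and 0 in the first and 3 and 1 in the second, and DESeq2 called 5 and 0, and 3 and 1. Without YKL-05-099 replicate 1 the serine median was 0.16.

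Genes for protein folding were more often higher than lower in replicate 2. In the endoplasmic reticulum list, 15 of 27 were higher and 6 lower, with a median of 0.16. XBP1, a transcription factor of the unfolded protein response, stood at 4089 and 3970 in replicate 1 and 6362 and 6423 in replicate 2, a log2 difference of 0.67 ± 0.04. MANF, a secreted folding factor, stood at 830.2 and 871 in replicate 1 and 1281 and 1292 in replicate 2, and HSPA5, the chaperone BiP, at 14848 and 15327 in replicate 1 and 19172 and 18369 in replicate 2. Both genes were higher in each replicate 2 library, by 0.60 ± 0.06 and 0.31 ± 0.05, whereas DNAJC3, a co-chaperone that inhibits the kinase PERK, was at 2401 and 2525 in replicate 1 and 1984 and 1891 in replicate 2, a difference of -0.35 ± 0.05.

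Among heat shock genes and cytosolic chaperones, 12 of 22 were higher and 1, HSPA4, was lower at -0.20, with a median of 0.15. HSPB1, the small heat shock protein, stood at 3237 and 2858 in replicate 1 and 4423 and 4124 in replicate 2, a log2 difference of 0.49 ± 0.04. The HSP90 cofactors AHSA1 and FKBP4 differed by 0.25 ± 0.04 and 0.22 ± 0.04, and SERPINH1, the collagen chaperone, by 0.48 ± 0.10. The stress-induced HSP90AA1 did not pass, at -0.07, adjusted p = 0.331. In the fit that left out DMSO replicate 2, 7 endoplasmic reticulum genes were higher and 1 lower, and 2 heat shock genes were higher and 0 lower, and without YKL-05-099 replicate 2 these were 8 and 3, and 5 and 0. DESeq2 called 8 and 4 in the first list and 6 and 1 in the second.

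Genes of sterol synthesis and uptake were more often higher in replicate 2. Of 25 tested, 15 were higher, 0 were lower and 10 did not pass, with a median log2 difference of 0.24. INSIG1, which holds back SREBP processing, stood at 3068 and 3751 in replicate 1 and 4942 and 5146 in replicate 2. Replicate 2 was higher in both treatments, a log2 difference of 0.57 ± 0.04, adjusted p = 1.88e-35. DHCR7, the last enzyme of the pathway, and FDPS, which makes farnesyl diphosphate, differed by 0.39 ± 0.05 and 0.34 ± 0.05, and SQLE, squalene epoxidase, by 0.26 ± 0.05. The early enzymes HMGCS1 (-0.02, adjusted p = 0.731) and IDI1 (-0.01, adjusted p = 0.864) did not pass.

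In fatty acid synthesis and desaturation, 9 of 18 genes were higher and 2 lower, with a median of 0.14. FADS2, a desaturase of polyunsaturated fatty acids, stood at 391 and 402 in replicate 1 and 766 and 786 in replicate 2, with replicate 2 about as far above replicate 1 in both treatments, a log2 difference of 0.97 ± 0.08. SCD, which makes oleate, stood at 8604 and 9265 in replicate 1 and 11921 and 12037 in replicate 2, a difference of 0.42 ± 0.04. The regulator SREBF1 differed by 0.36 ± 0.05, the elongase ELOVL1 by 0.44 ± 0.06, the synthase FASN by 0.26 ± 0.04 and FADS1 by 0.45 ± 0.08, and ME1, also on the NRF2 list, was lower. CPT1A, which admits fatty acids to mitochondria for burning, stood at 5342 and 5660 in replicate 1 and 4014 and 4137 in replicate 2. It was lower in replicate 2, within a fatty acid oxidation list in which 6 of 20 (30%) were higher and 3 (15%) lower. The median of the list was 0.10, and of all genes tested 17.3% were higher and 20.8% lower. That list had 1 higher and 4 lower (median 0.02) after the correction for length and GC content described below, 0 and 1 with DESeq2, without DMSO replicate 2 or without YKL-05-099 replicate 2, 2 and 3 without DMSO replicate 1 (median 0.05) and 1 and 1 without YKL-05-099 replicate 1. Without DMSO replicate 2, 6 sterol genes and 5 fatty acid synthesis genes were higher and 0 lower, without YKL-05-099 replicate 2 9 sterol genes were higher, and DESeq2 called 8 and 6 higher and 0 lower.

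**Figure D2:**
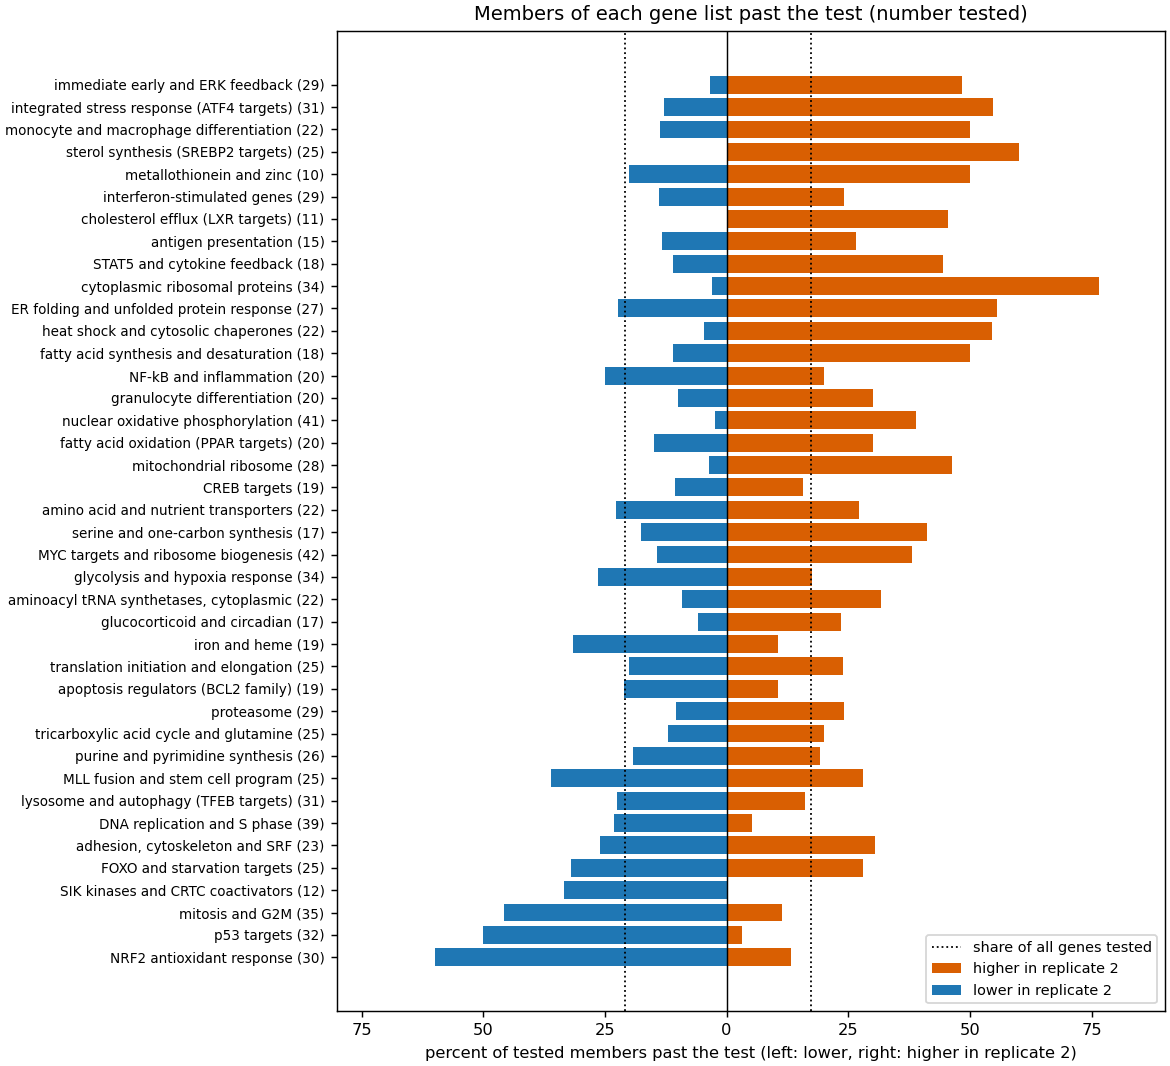
Percent of the tested members of each gene list with 10 or more tested (number in brackets) that were higher (orange, right) or lower (blue, left) in replicate 2; the dotted lines mark the share of all genes tested, 17.3% higher and 20.8% lower, and lists are in order of their median. The NRF2 list has 60% of its genes lower and the cytoplasmic ribosomal proteins 76.5% higher.

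Early response and cytokine feedback genes were more often higher than lower in replicate 2. Among 29 immediate early genes and feedback genes of ERK, 14 were higher and 1 lower, with a median of 0.33. MYC, the growth factor-induced transcription factor, stood at 7269 and 4769 in replicate 1 and 8298 and 7106 in replicate 2, a log2 difference of 0.38 ± 0.04 that came to 0.19 within DMSO and 0.58 within YKL-05-099. The AP-1 members FOSL2 and JUND differed by 0.42 ± 0.05 and 0.34 ± 0.04, and IER2 by 0.39 ± 0.06. EGR3, at 8.39 and 15.1 in replicate 1 and 35.9 and 22.9 in replicate 2, differed by 1.28 ± 0.36. In STAT5 and cytokine feedback, 8 of 18 (44.4%) were higher and 2 (11.1%) lower, against 17.3% and 20.8% of all genes tested. PIM1, a survival kinase downstream of FLT3, stood at 1619 and 1298 in replicate 1 and 2319 and 1783 in replicate 2. It differed by 0.49 ± 0.05, and the feedback inhibitors SOCS2 and SOCS1 by 0.25 ± 0.05 and 0.61 ± 0.12. Without DMSO replicate 2, 2 genes of each list were higher and 0 lower, without YKL-05-099 replicate 1 6 of each, and DESeq2 called 4 higher and 0 lower in each. Without YKL-05-099 replicate 2, 4 genes of the STAT5 list were higher and 1 lower.

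Growth programs did not all go one way. Of 34 cytoplasmic ribosomal protein genes, 26 were higher and 1 lower, with a median of 0.17, and many have processed pseudogenes that make a single gene's count uncertain. RPL35 stood at 10679 and 10658 in replicate 1 and 13304 and 12670 in replicate 2, with both replicate 2 libraries above both of replicate 1, a log2 difference of 0.28 ± 0.04, and RPS3 differed by 0.28 ± 0.05. The lower one was RPS18, at 738 and 32.4 in replicate 1 and 82.1 and 22 in replicate 2, where DMSO replicate 1 stood far above the other 3 libraries and the replicate numbers overlapped. In the MYC and ribosome biogenesis list, 16 of 42 (38.1%) were higher and 6 (14.3%) lower, with a median of 0.06. Of all genes tested, 17.3% were higher and 20.8% lower. RRS1, NOP56 and BOP1, which assemble the large subunit or its RNA, differed by 0.26 ± 0.05, 0.21 ± 0.04 and 0.24 ± 0.05. Leaving out DMSO replicate 2, 5 ribosomal protein genes were higher and 1 of the MYC list, without YKL-05-099 replicate 2 the first was 13, and DESeq2 called 25 higher and 0 lower in the first list and 3 and 2 in the second.

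Nuclear genes of oxidative phosphorylation were higher in 16 of 41 cases and lower in 1, NDUFS1, with a median of 0.10. ATP5G1, a ring subunit of ATP synthase, stood at 1825 and 1858 in replicate 1 and 2339 and 2295 in replicate 2, and COX8A, of cytochrome oxidase, at 4640 and 4646 in replicate 1 and 5601 and 5406 in replicate 2. Both lay above replicate 1 in both treatments, with log2 differences of 0.33 ± 0.05 and 0.25 ± 0.04, and ATP5I and NDUFA1 differed by 0.28 ± 0.05 and 0.27 ± 0.05. Of 28 mitochondrial ribosome genes, 13 were higher and 1, MRPL19, was lower, with a median of 0.10, led by MRPL17 at 0.37, MRPL24 at 0.31 and MRPS12 at 0.20. With DMSO replicate 2 left out, 2 oxidative phosphorylation genes and 1 mitochondrial ribosome gene were higher, without YKL-05-099 replicate 2 4 of each, and DESeq2 called 6 and 2. For mitochondrial ribosome genes the counts were 6 higher and 2 lower without DMSO replicate 1 and 8 and 1 without YKL-05-099 replicate 1.

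Mitotic genes were more often lower in replicate 2. Of 35 tested, 16 were lower and 4 higher, with a median of -0.10. ASPM, a spindle pole protein, stood at 4996 and 5158 in replicate 1 and 3481 and 3769 in replicate 2, a log2 difference of -0.49 ± 0.04. The motors CENPE and KIF11 and the checkpoint kinase TTK differed by -0.40 ± 0.05, -0.35 ± 0.04 and -0.27 ± 0.05. The 4 that were higher were CKS1B (0.30), CKS2 (0.20), AURKB (0.17) and UBE2C (0.12). In DNA replication, 9 of 39 (23.1%) were lower, a share near the 20.8% of all genes tested, and 2 were higher, with a median of -0.04 over both treatments and 0.0078 within DMSO. GINS1, a subunit of the replicative helicase, and the factors E2F2, CCNE2 and GINS4 differed by -0.32 ± 0.05, -0.37 ± 0.06, -0.21 ± 0.05 and -0.15 ± 0.05. Without DMSO replicate 2, 3 mitotic genes were lower and 0 higher, without YKL-05-099 replicate 1 8 and 2, without YKL-05-099 replicate 2 10 and 1, and DESeq2 called 8 lower and 0 higher. For DNA replication the counts were 1 lower and 0 higher without DMSO replicate 2, 5 and 1 without YKL-05-099 replicate 1, where the median was 0.03, 3 and 0 without YKL-05-099 replicate 2, and 3 and 0 with DESeq2.

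**Figure D3:**
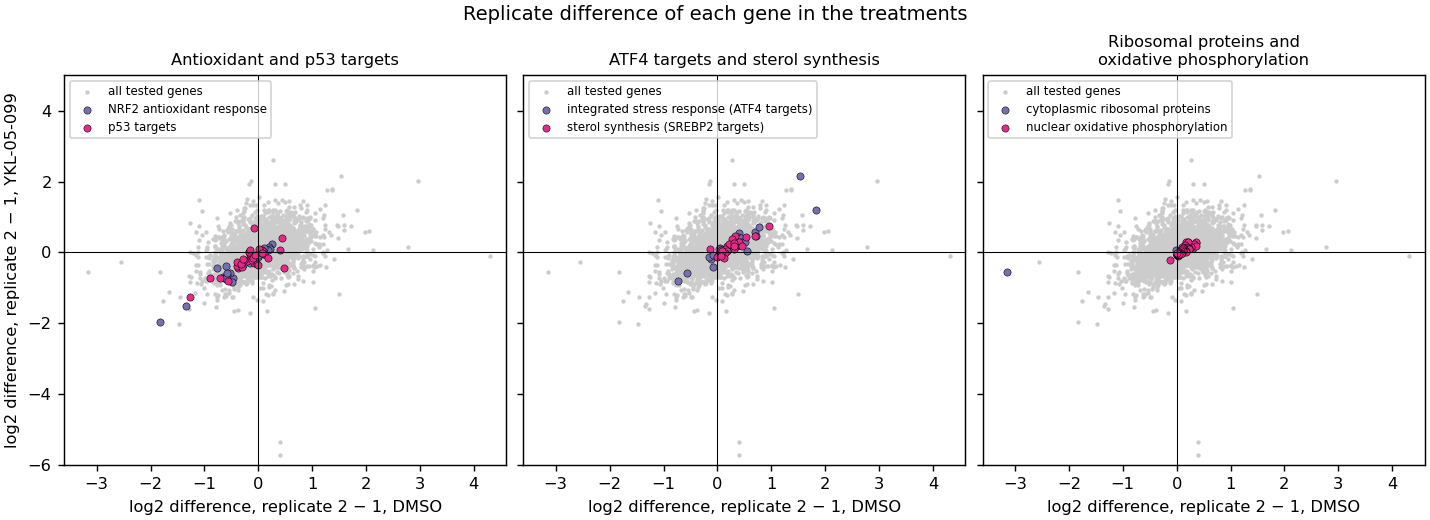
Log2 difference of replicate 2 minus replicate 1 of each gene in DMSO (horizontal axis) and in YKL-05-099 (vertical axis), with all 11361 genes tested in grey and the named lists in color. Across all genes Pearson's r was 0.53, and the genes of the NRF2 and p53 lists that differed most lie low in both treatments.

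Transcript length and GC content moved with the difference between the replicate numbers. They were taken from the longest protein-coding mouse transcript of the same name (GENCODE M21, GRCm38), which 10085 of the genes tested (88.8%) had, as a stand-in for the human transcripts. Spearman's rho across genes was -0.44 between length and the difference and 0.43 between GC content and the difference. With the genes in 5 equal groups by length, 38.4% of those with the shortest transcripts, 381 to 1811 bases, were higher and 4.02% lower in replicate 2, and of those with the longest, from 5123 bases, 5.01% were higher and 48.1% lower. By GC content in 5 equal groups, 4.56% of the lowest group were higher and 41.8% lower, against 32.3% and 4.96% of the highest.

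**Figure D4:**
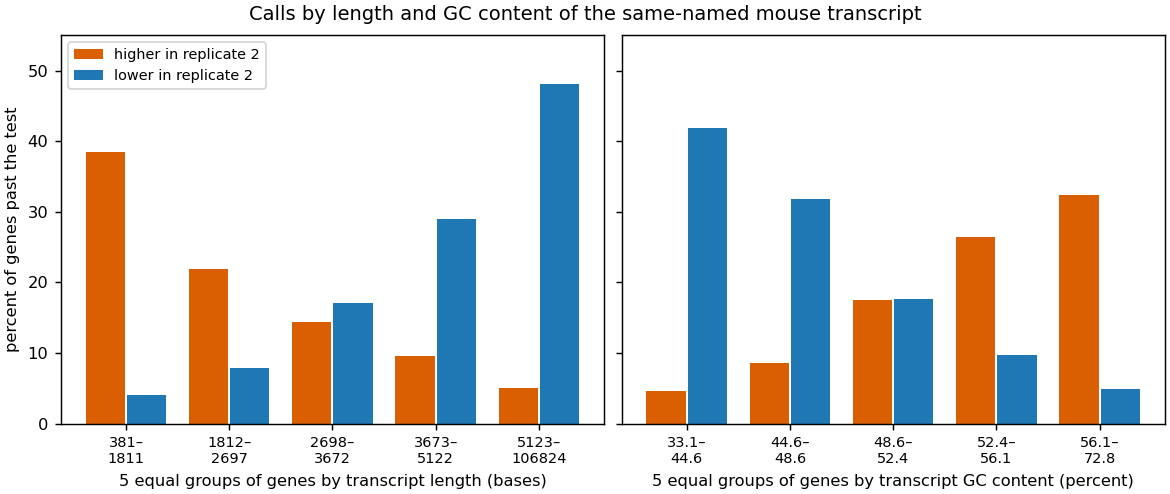
Percent of genes higher (orange) and lower (blue) in replicate 2 in 5 groups of equal size by length in bases (left) and GC content in percent (right) of the same-named mouse transcript. The share lower in replicate 2 rises with length, from 4.02% to 48.1%, and falls with GC content, from 41.8% to 4.96%.

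When each library's log2 values were corrected for length and GC content, an analysis added after seeing the data, 2841 of 10085 genes differed. Of these, 1322 were higher and 1519 lower in replicate 2. Of the 3941 genes called without the correction among the 10085, 1970 were called again in the same direction. The medians of the antioxidant and p53 lists lay no closer to 0 than before, but over fewer genes. Uncorrected medians of those fewer genes alone were not taken. Of 25 NRF2 genes with a mouse counterpart, 15 were lower and 1 higher, with a median of -0.23, and of 29 p53 targets 20 were lower and 1 higher, with a median of -0.20. ATF4 targets had 18 higher and 3 lower of 31 (median 0.20), sterol genes 15 higher and 0 lower of 24 (0.18), fatty acid synthesis 10 higher and 1 lower of 17 (0.22) and heat shock genes 11 higher and 1 lower of 22 (0.11). The endoplasmic reticulum list had 11 higher and 2 lower of 27 (0.09), and the immediate early genes 9 higher and 2 lower of 29 (0.20).

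Lists of short transcripts lay closer to 0 or past it after the correction. Cytoplasmic ribosomal proteins, whose median mouse transcript was 1015 bases long, went from 26 to 8 higher and from 1 to 4 lower of 34, with a median of 0.03. Nuclear oxidative phosphorylation genes, with a median of 1111 bases, went from 16 to 4 higher, and to 9 lower of 40, with a median of -0.04. Mitochondrial ribosome genes had 7 higher and 3 lower (0.01). Mitotic genes, whose median was 3398 bases, had 14 lower and 4 higher, while their median went from -0.10 to -0.04. Whether length, GC content, depth or the cells' state set the differences was not tested.

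**Figure D5:**
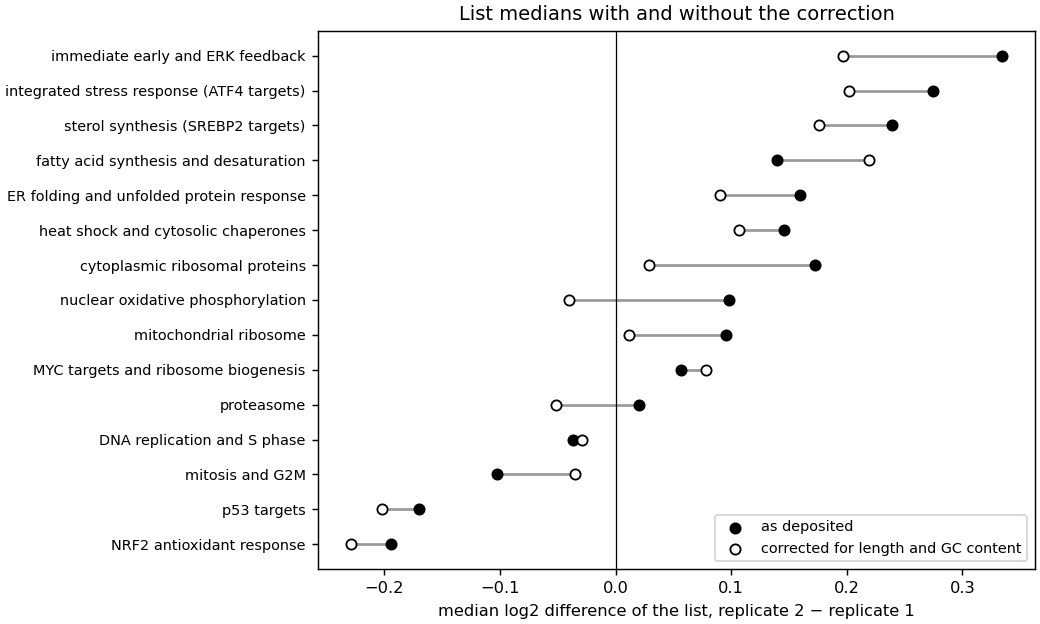
Median log2 difference, replicate 2 minus replicate 1, of 15 gene lists as deposited (filled) and after correction for length and GC content (open). The corrected medians cover only genes with a same-named mouse transcript. The p53 and NRF2 medians lie at -0.17 and -0.19 before and -0.20 and -0.23 after, and that of nuclear oxidative phosphorylation crosses from 0.10 to -0.04.

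Among single genes with a mean of at least 50 and no overlap, the 15 highest above replicate 1 included, beside CHAC1 and FADS2, the BMP antagonist NOG, at 86 and 91.5 in replicate 1 and 257 and 191 in replicate 2, and the glucocorticoid-induced TSC22D3, at 502 and 793 in replicate 1 and 1191 and 1345 in replicate 2. Both were higher in each replicate 2 library, by 1.31 ± 0.14 and 1.00 ± 0.06. STON1, an endocytic adaptor, differed by 0.98 ± 0.14, NMNAT3, a mitochondrial NAD synthesis enzyme, by 0.88 ± 0.22, NAGK, a sugar kinase, by 0.86 ± 0.12, and LDHD, a D-lactate dehydrogenase, by 0.78 ± 0.20. A further 6 were CCDC182, TSPAN32, ICAM5, PPP1R3G, PTMS and PHLDA2, with log2 differences between 0.76 and 1.01.

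The 15 farthest below replicate 1 by the same rule included, beside HMOX1, OSGIN1 and MDM2, the transcription factor MSC, at 145 and 98.5 in replicate 1 and 59 and 31.5 in replicate 2, POMK, a kinase of dystroglycan's sugars, at 309 and 305 in replicate 1 and 112 and 126 in replicate 2, and PRDM1, which drives plasma cell and terminal differentiation, at 212 and 280.4 in replicate 1 and 139 and 118 in replicate 2. In each of them the replicate 2 libraries lay below those of replicate 1, by -1.45 ± 0.19, -1.36 ± 0.12 and -0.92 ± 0.13. RC3H1, which represses inflammatory messages, differed by -0.82 ± 0.06, SKIL, a repressor of TGF-beta signaling, by -0.85 ± 0.09, and the platelet glycoprotein GP1BA by -0.92 ± 0.19. WASH1, at -1.39, has near-identical copies and is uncertain, and KLHL11, TLR1, GATAD2B, RIMS3 and ZBED6 lay between -0.90 and -0.82.

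Of the kinases that YKL-05-099 inhibits, SIK3 passed the test as lower in replicate 2, and so did MEF2C, the factor that they keep active. The median absolute log2 difference over all genes tested was 0.15. SIK1 stood at 201 and 221 in replicate 1 and 208 and 224 in replicate 2, SIK2 at 732 and 715 in replicate 1 and 627 and 673 in replicate 2 and SIK3 at 1018 and 978 in replicate 1 and 935 and 866 in replicate 2. The replicate numbers overlapped in SIK1 and did not in SIK2 and SIK3. The log2 difference of SIK1 was 0.03 ± 0.12 (adjusted p = 0.849), that of SIK2 was -0.16 ± 0.07 (adjusted p = 0.0609), and that of SIK3 was -0.15 ± 0.06 (adjusted p = 0.0386). MEF2C stood at 7976 and 8830 in replicate 1 and 7522 and 7355 in replicate 2, a log2 difference of -0.17 ± 0.04 that came to 0.05 after the correction for length and GC content (adjusted p = 0.288). Of 12 genes of the SIK and CRTC list, 4 (33.3%) were lower and 0 higher, against 20.8% and 17.3% of all genes tested. With DESeq2 0 passed, and after the correction 3 were lower and 0 higher. The median of -0.10 came to -0.08 without DMSO replicate 1 and -0.12 without YKL-05-099 replicate 1.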

How the data were processed

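The MOLM-13 libraries were compared by replicate number, taken from the titles, and RN2 libraries beside them. The values the authors deposited are a linear signal, read counts normalized by DESeq2 through division by a size factor for each library. The submitters' processing notes name HISAT2, featureCounts and DESeq2 and the genome builds hg19 and mm10, with versions that the sources used here do not state. Dividing by the worth of 1 read gave whole reads for 100% of the values, to within 6.1e-10 reads in the MOLM-13 libraries. The table had 19166 rows, and 0 columns lacked a sample.

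Genes whose mean over the 4 libraries was 10 or more were tested in R 4.3.3 with limma 3.58.1 on log2(value + 1), with moderated variances that follow the mean, a two-sided test, treatment as a covariate, Benjamini-Hochberg adjustment over all genes tested and a threshold of 0.05. This scale understates the difference of low genes. Differences are replicate 2 minus replicate 1, with standard errors (SE) from the moderated variance, which here was that of the trend. edgeR 4.0.16 and DESeq2 1.42.0 on the recovered reads were alternatives, with other pseudocounts, filters and scalings and leaving out each library. Length and GC content were corrected by a loess fit (span 0.5) per library.

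Gene lists, 45 programs and 9 of cell type markers, held 1188 symbols, of which 1157 were matched, 43 of them through an older symbol. Mitochondrial-encoded and nuclear-retained RNAs are not analysed here, and some genes that the rule names are not reported here. Named genes were the 15 largest differences in each direction past the test with a mean of at least 50 and no overlap, passing over unnamed models (C1orf186), up to 4 members with the lowest p of each list described, SIK1 to SIK3, MEF2C and markers with a mean of at least 10. The libraries and lists were chosen with earlier results of these data known, so the lists are described by counts and medians, without a test of the list.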

Additional observations from a re-analysis of the deposited data

How the results depend on the processing

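Of 43 lists, none changed the sign of its median with edgeR, DESeq2, TMM scaling, either pseudocount, no filter or no treatment covariate. The sign changed in 1 list at a mean of at least 50 and in 2 with quantile normalization, and in 10 with the correction for length and GC content, which was chosen after seeing the data. It also changed in 8 lists without DMSO replicate 1, 2 without DMSO replicate 2, 2 without YKL-05-099 replicate 1 and 3 without YKL-05-099 replicate 2. Called members fell by over 1.5 times in 43 lists without the trend, 39 with DESeq2, 42 without DMSO replicate 2, 39 without YKL-05-099 replicate 2, 19 without YKL-05-099 replicate 1, 12 without DMSO replicate 1, 10 with the correction and 9 without the covariate. The MOLM-13 count of 4332 genes came to 0 without the trend, 1366 with DESeq2 (443 higher and 923 lower, with 3524 genes given no adjusted p), 2841 after the correction, 3179 without the covariate and 1123 to 3271 without a library (2449 and 1590 without YKL-05-099 replicate 1 and 2), fits that leave 3 libraries and no covariate. The cause of the other changes was not tested. Medians without a library ranged from -0.21 to -0.15 for p53 targets and from -0.26 to -0.18 for NRF2 genes. After the correction they were 0.18 for sterol genes, 0.029 for cytoplasmic ribosomal proteins, -0.040 for nuclear oxidative phosphorylation (0.051 within YKL-05-099 as deposited) and -0.032 for granulocyte genes. That of the NF-kB list, 0.11, came to -0.00023 at a mean of at least 50 and -0.027 without DMSO replicate 1. Single genes were checked for a change of sign only if named, and counted only if past the test with or without the correction. Among these, MEF2C (0.051), BAX (-0.17), COX8A (-0.019), GSTP1 (-0.033), MRPS12 (-0.013) and SOD1 (-0.077) changed sign with the correction. RPS18 came to 0.39 without DMSO replicate 1, CD99 to -0.049 without DMSO replicate 2 and GTPBP6 to 0.17 without YKL-05-099 replicate 1. In RN2 the count of 652 came to 19 with no filter, 0 without the trend, 10 with DESeq2, 0 without the covariate and 0 to 375 without a library. The YKL-05-099 count of 0 became 7 with DESeq2, 14 to 20 without a library and 290 with a replicate block. The 2 pairs share only a number, and the labels do not say that it pairs them. Depth sets the precision of low genes, such as EGR3 at 8.39 to 35.9.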

Other observations

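Further gene groups held members that differed between the replicate numbers. Of 22 monocyte and macrophage genes tested, 11 (50%) were higher and 3 (13.6%) lower in replicate 2, with a median log2 difference of 0.27. The shares of all genes tested were 17.3% higher and 20.8% lower. S100A4, a calcium-binding protein, stood at 3239 and 3622 in replicate 1 and 4428 and 4553 in replicate 2, CD68, a lysosomal glycoprotein of macrophages, at 2675 and 2641 in replicate 1 and 3421 and 3369 in replicate 2, and TYROBP, a signaling adaptor of myeloid receptors, at 1121 and 1089 in replicate 1 and 1460 and 1444 in replicate 2. All 3 were higher in both replicate 2 libraries, by 0.39 ± 0.04, 0.35 ± 0.05 and 0.39 ± 0.06, and TREM1, a receptor that pairs with TYROBP, differed by 0.65 ± 0.12. LYZ, lysozyme, was lower by a log2 difference of -0.20 ± 0.05. The median was 0.31 within DMSO and 0.10 within YKL-05-099. Without DMSO replicate 1, 5 of the list were higher and 3 lower, with a median of 0.10, without DMSO replicate 2 the counts were 4 and 0, without YKL-05-099 replicate 2 3 and 0, and DESeq2 called 3 and 1.

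The MLL fusion and stem cell list had 7 of 25 genes higher and 9 lower. It had 10 higher and 4 lower after the correction for length and GC content, 8 and 5 without DMSO replicate 1, 1 and 4 without DMSO replicate 2, 4 and 7 without YKL-05-099 replicate 1, 3 and 4 without YKL-05-099 replicate 2 and 4 and 4 with DESeq2, and of all genes tested 17.3% were higher and 20.8% lower. CDK6, a kinase that MLL-AF9 leukemia depends on, stood at 13655 and 14031 in replicate 1 and 9876 and 9023 in replicate 2, a log2 difference of -0.55 ± 0.04. HOXA11 differed the other way, by 0.46 ± 0.07, and HOXA9 by 0.19 ± 0.05. Of 10 metallothionein and zinc genes, 5 (50%) were higher, 2 (20%) were lower and 3 did not pass, with a median of 0.22. Only 4 had a mouse counterpart, and after the correction 0 of them were higher and 1 was lower, with a median of 0.04. Without DMSO replicate 2 the counts were 3 and 1 (median 0.13), without YKL-05-099 replicate 1 4 and 1 (median 0.10), without YKL-05-099 replicate 2 2 and 1, and DESeq2 called 2 and 1. Of the metallothioneins, which bind zinc and copper, MT1G stood at 1894 and 1921 in replicate 1 and 2477 and 2490 in replicate 2 and MT1E at 1816 and 1810 in replicate 1 and 2345 and 2385 in replicate 2, in a family whose near-identical members make single counts uncertain. IREB2, an iron sensor, stood at 4695 and 4861 in replicate 1 and 3673 and 3537 in replicate 2. It was lower, by -0.41 ± 0.04, as was FTH1. Of 19 iron and heme genes, 2 (10.5%) were higher and 6 (31.6%) lower, with a median of 0.04. Of 20 inflammation genes, 4 (20%) were higher and 5 (25%) lower, shares near those of all genes tested. Among them CCL5, a chemokine, differed by 0.54 ± 0.05, and REL, an NF-kB subunit, by -0.53 ± 0.07. Zinc finger genes with the prefix ZNF, a group chosen after its values were seen, had 16 higher and 111 lower of 372, with a median of -0.14. The shares of all genes tested were 17.3% higher and 20.8% lower. The ZNF genes were not counted again after the correction for length and GC content.

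Some genes, chosen after their values were seen, passed the test although a single library stood apart. RPS18 was at 738 and 32.4 in replicate 1 and 82.1 and 22 in replicate 2. CD99 was at 9.43 and 10.4 in replicate 1 and 205 and 9.55 in replicate 2 and ATF6B at 18.9 and 19.7 in replicate 1 and 135 and 22 in replicate 2. GTPBP6 stood at 1.05 and 79.9 in replicate 1 and 1.71 and 0.955 in replicate 2, and YTHDC1 at 1.05 and 52.1 in replicate 1 and 1.71 and 0 in replicate 2. The replicate numbers overlapped in 4 of these genes and lay close in ATF6B, and each difference rests on 1 library. Near absent in both replicate 1 libraries, at 3 reads or fewer, and at 10 or more reads in both of replicate 2 were 2 genes, CDHR4 and RSPH9, and 0 genes showed the opposite.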
